A study of Mus musculus with 8 samples.

Results

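The 6 late cornified envelope genes of the LCE3 group (Lce3a, Lce3b, Lce3c, Lce3d, Lce3e and Lce3f) were followed in the epidermis of newborn mice, out of 22180 genes measured. They were taken by gene symbol, and each had 1 probe set that named no other gene, so all 6 were measured. The tested samples were 4 arrays of K320E-TwinkleEpi newborns (K320E below), in which K320E, a mutant form of the mitochondrial DNA helicase Twinkle, was expressed in the epidermis under the K14 promoter. The comparison samples were 4 arrays of control newborns labelled R26-K320E-TwinkleloxP/+, so the control label names the K320E-Twinkle allele as well. All mice were C57BL/6J at postnatal day 0, and no other treatment is given. The K14 promoter is active in basal keratinocytes and in the outer layer of the hair follicle, so the mutant can be made in follicles as well as in the epidermis between them. Whether each array came from its own animal or litter is not stated, so p-values refer to the spread among these arrays alone, and part of that spread could be technical.

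LCE proteins are small, cysteine-rich proteins that transglutaminases cross-link into the cornified envelope, the protein shell that replaces the plasma membrane of the outermost keratinocytes. Their genes lie together in the epidermal differentiation complex. In human skin the LCE1 and LCE2 groups are made during normal cornification, whereas the LCE3 group is low in intact skin and is raised after barrier injury and in psoriatic plaques. Separate functions of the single mouse Lce3 genes are not established well enough to be given here.

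The 6 genes are neighbours, and the DNA just before their start sites is partly shared. The last 100 bases before each start site are shown, because the genes lie side by side and their levels are described together below. They come from RefSeq, build GRCm38.p6, and are written 5′ to 3′ on the strand of the gene: Lce3a chr3:92926231-92926330 (minus strand), Lce3b chr3:92932879-92932978, Lce3c chr3:92944386-92944485, Lce3d chr3:92957290-92957389, Lce3e chr3:92966961-92967060 and Lce3f chr3:92992117-92992216 (all plus strand). Capitals mark the run ATAAAA and matches to TTGNNNAA.
Lce3a: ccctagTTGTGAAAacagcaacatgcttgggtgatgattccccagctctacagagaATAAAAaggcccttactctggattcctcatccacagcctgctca
Lce3b: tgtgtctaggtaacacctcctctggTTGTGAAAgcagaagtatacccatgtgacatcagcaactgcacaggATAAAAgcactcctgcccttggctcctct
Lce3c: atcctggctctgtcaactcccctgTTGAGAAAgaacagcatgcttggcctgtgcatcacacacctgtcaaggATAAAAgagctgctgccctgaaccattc
Lce3d: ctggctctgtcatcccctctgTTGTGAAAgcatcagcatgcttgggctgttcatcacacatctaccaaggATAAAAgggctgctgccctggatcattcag
Lce3e: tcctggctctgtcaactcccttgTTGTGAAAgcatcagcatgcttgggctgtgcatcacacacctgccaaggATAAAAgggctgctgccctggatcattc
Lce3f: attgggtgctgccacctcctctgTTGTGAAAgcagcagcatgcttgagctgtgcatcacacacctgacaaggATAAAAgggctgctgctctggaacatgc

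In each of these windows the ATAAAA run began between 28 and 44 bases before the start site, and a TTGNNNAA match began between 75 and 94 bases before it. ATAAAA is the longest run found in all 6 of the 250-base upstream windows, on the strand of the gene, and was picked out after the windows were compared. On the strand of the gene it occurs in 10.2% of 32851 mouse promoter windows of that length, and on either strand in 17%. TTGNNNAA occurs on either strand in 33.3%. A longer run, CAAGGATAAAAG, was shared by Lce3c, Lce3d, Lce3e and Lce3f and was found in 5 of the 32851 windows on the strand of the gene. The 5 are the windows of these 4 genes and of Gm46834. It was picked as the longest run that the 4 share, so its rarity is no separate test. Lce3d and Lce3e had the most similar upstream windows, with 215 of 243 aligned bases identical, and Lce3b and Lce3d the least similar, with 148 of 227. Neither the AP-1 motif TGANTCA (6.75% of windows, both strands) nor the STAT motif TTCNNNGAA (7.02%) was found in any of the 6 windows. These are letter matches only, and no binding was measured.

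Twnk, which encodes Twinkle, was higher on every K320E array, at 9.05 ± 0.18 log2 units (SD, n = 4) in K320E and 6.73 ± 0.18 (SD, n = 4) in controls. Sex-linked transcripts of 2 control arrays were atypical: control replicate 2 carried both Xist (9.27) and Y-linked transcripts (mean of 3 genes 9.05), and control replicate 3 carried little of either (6.17 and 4.75). Limma results for the LCE3 genes and the other Lce genes are therefore also given without these 2 arrays. K320E replicate 3 had a male pattern, with Y-linked transcripts (8.64) and little Xist (6.84). K320E replicates 1, 2 and 4 and control replicates 1 and 4 had a female pattern (Xist 12.07 to 12.27, Y-linked 4.75 to 4.82). Sex was thus not balanced between the groups and was not a term in the fit. The keratinocyte markers except Krt2 matched the labelled tissue. With Krt2 included, the mean over the 9 genes was 11.22 ± 0.05 (SD, n = 4) in K320E and 11.20 ± 0.06 (SD, n = 4) in controls. Krt2 was low, at 5.73 in K320E and 5.90 in controls. Krt2 (-0.17) and Krt14 (0.27) did not overlap between the genotypes, in opposite directions, and neither was called. Over all genes, limma called 195 of 22180 at an adjusted p under 0.05, 152 higher and 43 lower in K320E, or 0.879%, and 3288 genes (14.8%) had an unadjusted p under 0.05.

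The LCE3 genes were higher in K320E epidermis. In limma's fit over all genes 4 of the 6 rose, 0 fell and all 6 fold changes were positive, with a median log2 fold change of 1.71. Over all genes the median log2 fold change was -0.00052, with 0.685% of genes called higher and 0.194% called lower in K320E. On 5 of the 6 genes every K320E array lay above every control array, which held for 5.5% of all genes in this direction. Values are log2 intensities, and because probe sets respond differently, the level of one gene is not set against that of another.

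Lce3d had the largest fold change of the group. Its log2 intensities were 10.73, 9.75, 10.36 and 10.36 on the K320E arrays (replicates 1 to 4), against 8.09, 8.24, 7.96 and 8.01 on the control arrays. The controls were tightly grouped, and even the lowest K320E array, replicate 2, lay well clear of the highest control. Lce3d rose by 2.22 on the log2 scale (SE 0.18, limma adjusted p = 0.0021), or 4.67-fold with a 95% interval of 3.53 to 6.17.

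Lce3e measured 9.81, 9.60, 9.85 and 10.03 on the K320E arrays, against 8.15, 8.47, 7.88 and 7.96 on the control arrays. The groups did not overlap, and the spread within each was small beside the gap of 1.14 between them. It rose by 1.71 on the log2 scale (SE 0.13, limma adjusted p = 0.0021), or 3.27-fold with a 95% interval of 2.65 to 4.03.

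Lce3f measured 6.54, 6.67, 7.43 and 7.40 on the K320E arrays, against 5.20, 5.54, 5.17 and 5.01 on the control arrays. Here K320E replicates 1 and 2 were below replicates 3 and 4, and all 4 were above the controls. Every control value lay below 5.69, the level that bounds the lowest 33.3% of all genes by mean. It rose by 1.78 on the log2 scale (SE 0.22, limma adjusted p = 0.0098), or 3.43-fold with a 95% interval of 2.45 to 4.80.

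Lce3c had the smallest rise among the genes that passed the test. It measured 11.64, 11.24, 11.21 and 11.30 on the K320E arrays, against 10.52, 10.37, 10.21 and 9.69 on the control arrays. The K320E arrays lay close together except for the higher replicate 1, and control replicate 4 was the lowest array. Lce3c rose by 1.15 on the log2 scale (SE 0.17, limma adjusted p = 0.021), or 2.22-fold with a 95% interval of 1.69 to 2.91.

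Lce3a had a fold change as large as that of Lce3e but a wider spread. It measured 7.95, 7.28, 8.46 and 8.37 on the K320E arrays, against 6.88, 6.73, 5.83 and 5.79 on the control arrays. The groups did not overlap, but each spanned more than 1 log2 unit. The log2 fold change was 1.71 (SE 0.32) and its limma adjusted p of 0.0515 missed the threshold; the 95% interval was 1.98-fold to 5.41-fold.

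Lce3b differed least. It measured 6.69, 5.74, 7.05 and 6.39 on the K320E arrays, against 6.10, 5.85, 5.91 and 5.40 on the control arrays. K320E replicate 2 lay below 3 of the 4 controls, so the groups overlapped. The log2 fold change was 0.65 (SE 0.26, limma adjusted p = 0.28), with a 95% interval from 1.05-fold to 2.35-fold. By exact permutation of the 8 arrays (two-sided), Lce3b had p = 0.114 and each of the other LCE3 genes had p = 0.0286, the smallest that this design allows.

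**Figure D1:**
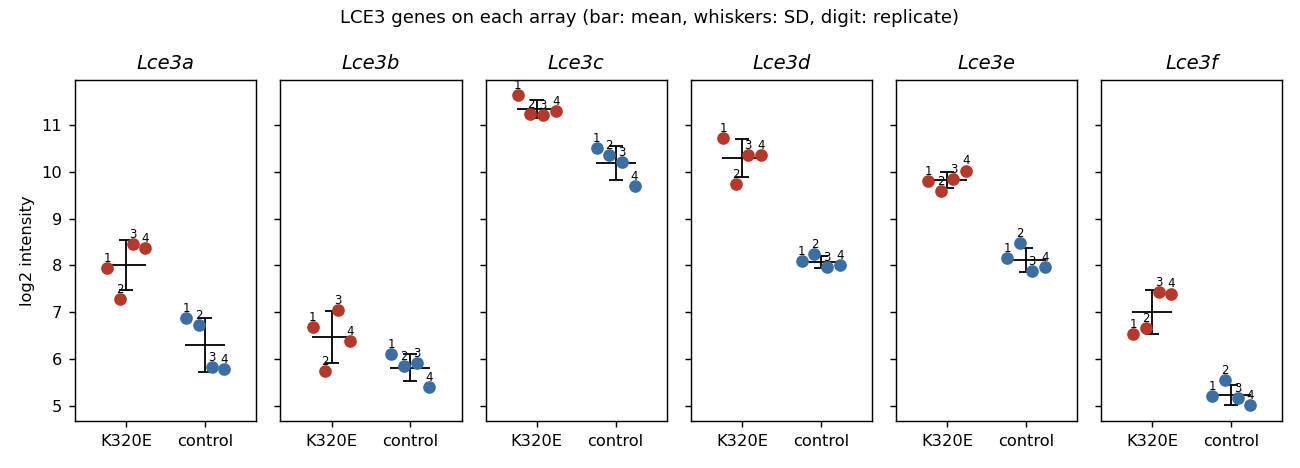
Log2 intensity of each LCE3 gene on each array (y axis), with the 4 K320E arrays in red left of the 4 control arrays in blue; bars are means, whiskers are SDs and digits are replicate numbers. The K320E arrays sit above all controls for every gene except Lce3b, where K320E replicate 2 (5.74) falls among the controls; heights of different genes are not comparable.

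Leaving out single arrays did not end the calls of Lce3d, Lce3e and Lce3f, whose adjusted p reached at most 0.013, 0.012 and 0.042 in the 8 reduced limma fits. Lce3c passed in 4 of the 8 reduced fits and missed the threshold without K320E replicate 1, 3 or 4 or control replicate 2 (adjusted p = 0.052 to 0.070), with log2 fold changes from 0.98 to 1.26. Lce3a passed without K320E replicate 2 (log2 fold change 1.95, limma adjusted p = 0.031) and in none of the other 7. Without control replicates 2 and 3 together, the arrays with atypical sex-linked transcripts, limma called 3 members. Lce3d, Lce3e and Lce3f had log2 fold changes of 2.25, 1.77 and 1.90 in that fit, and Lce3c had 1.24 with an adjusted p of 0.072.

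**Figure D2:**
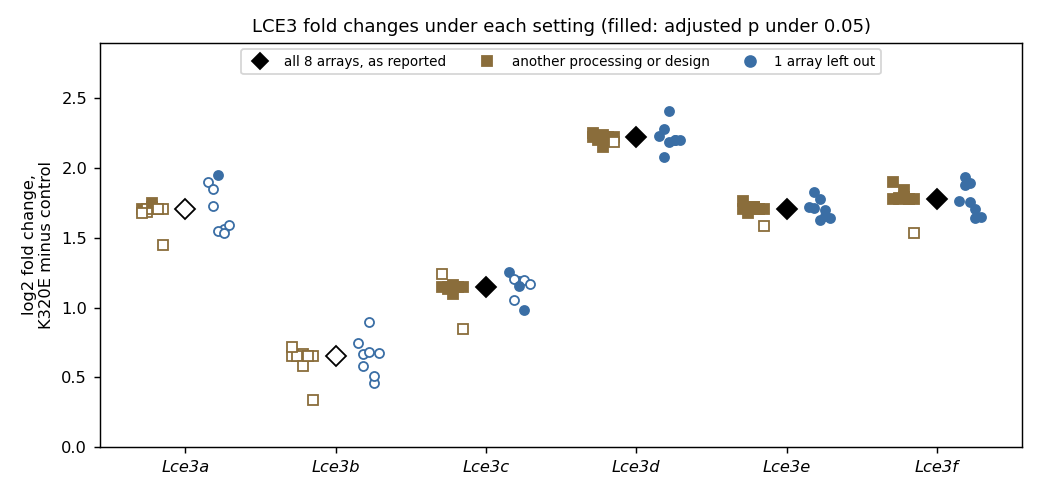
Log2 fold change (K320E minus control) of each LCE3 gene under every setting, with the 8-array fit as a diamond, other processing or designs as squares and fits without 1 array as circles; filled symbols had an adjusted p under 0.05. All fold changes stay above 0, the highest for Lce3d and the lowest for Lce3b, where no symbol is filled.

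The members were compared with each other by the difference of their fold changes within arrays, over 15 pairs. In 6 pairs the difference had the smallest possible exact permutation p of 0.0286, and after Benjamini-Hochberg adjustment over the 15 pairs these had p = 0.0714, so no pair passed. The widest difference was between Lce3b and Lce3d, at -1.57 log2 units (SE 0.23) for Lce3b minus Lce3d. Lce3a and Lce3e differed by 0.0014 (SE 0.28). Within the groups the members also varied in part together. The deviations from the group means of the 8 arrays correlated positively in 14 of the 15 pairs, with Pearson's r from -0.04 for Lce3c and Lce3f to 0.82 for Lce3a and Lce3e and a median of 0.51. The 8 points share array and normalisation, and probes of similar paralogs can take up each other's transcripts, which was not tested. K320E replicate 2 was the lowest K320E array for 4 of the 6 genes, and control replicate 4 the lowest control array for 4 of the 6.

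The rise was set against the other Lce genes. Of 19 entries for the Lce1, Lce2 and Lce6 groups, 12 were measured (11 Lce1 genes and Lce6a), 2 lay on probe sets naming several genes and 5 had no match. In limma's fit 0 of these 12 passed and 2 had an unadjusted p under 0.05, a share near the 14.8% of all genes. Their median log2 fold change was 0.05. Lce1k had the highest fold change, 0.91 (SE 0.35, adjusted p = 0.27), and Lce6a the lowest, -0.50 (SE 0.13, adjusted p = 0.13). Their mean level was 9.77 ± 0.09 (SD, n = 4) in K320E and 9.66 ± 0.36 (SD, n = 4) in controls. Control replicates 2 and 3, with the atypical sex-linked transcripts, averaged 9.95 and 9.97, above every K320E array (9.69 to 9.89). Control replicates 1 and 4 averaged 9.48 and 9.23, below every K320E array. Without control replicates 2 and 3 limma called 0 of the 12, and 7 had an unadjusted p under 0.05. The share of all genes under that threshold was not counted for this fit.

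The difference itself was tested for each member, as its level minus the mean of these 12 genes on the same array. Relative to them Lce3d was higher in K320E than in controls by 2.12 (SE 0.29), Lce3f by 1.67 (SE 0.30), Lce3e by 1.60 (SE 0.23) and Lce3c by 1.04 (SE 0.20). Each of these 4 had an exact two-sided permutation p of 0.0286, or 0.0429 adjusted over the 6 members, and none overlapped between the genotypes. Lce3a had 1.60 (SE 0.45, exact permutation p = 0.0571, adjusted 0.0686) and Lce3b 0.54 (SE 0.35, exact permutation p = 0.229). The mean of the 12 genes was 9.95 and 9.97 on control replicates 2 and 3, against 9.48 and 9.23 on control replicates 1 and 4. The higher means of replicates 2 and 3 add to each of these relative rises. This comparison was not repeated without those arrays.

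The same fold changes were then read in gene order. In the RefSeq gene table the 6 LCE3 genes follow each other with no other measured gene between them. Of the 10 measured genes on each side 0 passed limma's test, and 7 of the 20 had an unadjusted p under 0.05, against 14.8% of all genes. Of these 7, 6 lay on the side of Crct1. The median log2 fold change of the 10 genes was 0.13 on the side of Lce1l and Kprp, an epidermal proline-rich protein gene, and -0.13 on the side of Crct1, a cysteine-rich keratinocyte gene. The nearest measured genes were 2310050C09Rik, whose fold change was 0.17 (SE 0.12, limma adjusted p = 0.58), and Crct1, at 0.21 (SE 0.15, limma adjusted p = 0.58), both on the log2 scale. Farther out Rptn, which encodes the envelope protein repetin, differed by 1.30 (SE 0.29, limma adjusted p = 0.083), and Tchh, which encodes the hair follicle protein trichohyalin, had -1.32 (SE 0.30, limma adjusted p = 0.092).

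**Figure D3:**
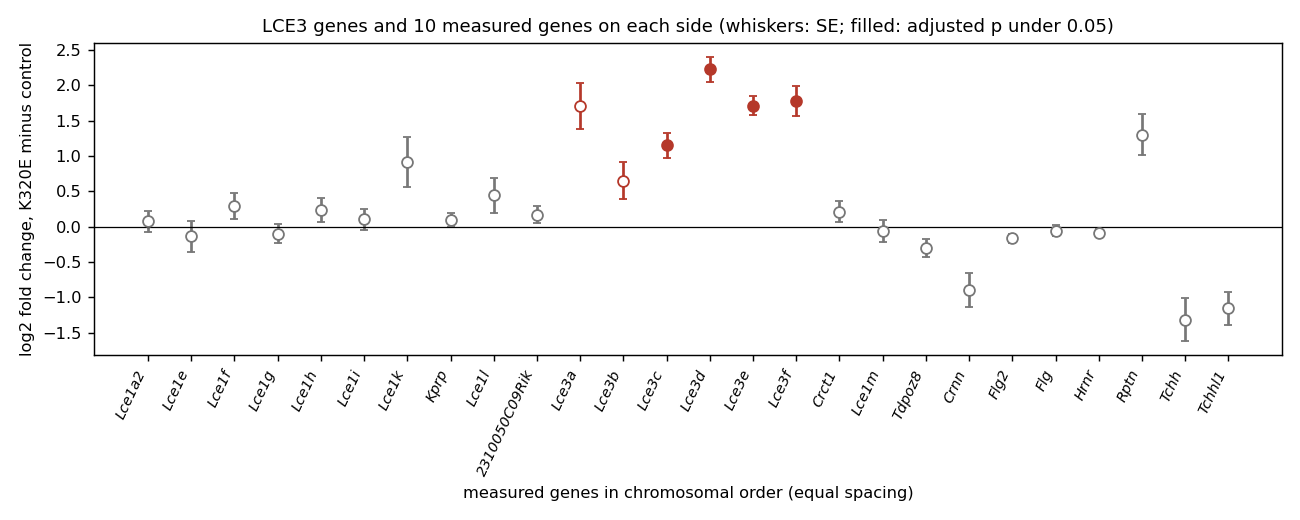
Log2 fold change (K320E minus control, whiskers SE) of the 6 LCE3 genes in red and of the 10 measured genes on each side in grey, in chromosomal order at equal spacing; filled symbols had an adjusted p under 0.05. Filled symbols occur only among the LCE3 genes, and the nearest measured neighbours lie at 0.17 and 0.21.

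The next question was whether other components of the cornified envelope rose as well. Of 37 measured envelope genes outside the Lce group, 5 rose and 0 fell in limma's fit, 18 had an unadjusted p under 0.05 (14.8% of all genes did), and the median log2 fold change was 0.18. All 5 belong to the small proline-rich protein family, cross-bridging envelope proteins that keratinocytes raise under stress; the gene table lists Sprr2g as a transcribed pseudogene, and values of single Sprr2 genes are uncertain because the paralogs share sequence. Sprr1b rose by 2.14 (SE 0.29), Sprr2g by 2.04 (SE 0.32), Sprr2e by 1.60 (SE 0.18), Sprr2h by 1.38 (SE 0.25) and Sprr1a by 0.73 (SE 0.12) on the log2 scale, with limma adjusted p from 0.0068 to 0.041. Sprr2f had the highest fold change, 2.50 (SE 0.55, limma adjusted p = 0.082), and Prr9 the lowest, -1.48 (SE 0.54, limma adjusted p = 0.24). Without control replicate 1 or K320E replicate 3, 1 of the 37 was called, and 2 without K320E replicate 1 and 3 without K320E replicate 4 or control replicate 2.

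Among 14 stress-responsive keratinocyte genes 2 rose, 0 fell and 11 had an unadjusted p under 0.05 (14.8% of all genes did), with a median log2 fold change of 0.97. Slpi, a secreted protease inhibitor, rose by 2.43 (SE 0.33, limma adjusted p = 0.014), and Pglyrp3, which binds bacterial peptidoglycan, rose by 0.71 (SE 0.09, limma adjusted p = 0.013). Serpinb3a had the lowest fold change, -0.07 (SE 0.10, limma adjusted p = 0.79). Without K320E replicate 3 limma called 0 of the 14 and 10 had an unadjusted p under 0.05, and without K320E replicate 4 it called 1.

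Inflammatory cytokines raise LCE3 transcripts in human keratinocytes, so cytokines and receptors of the skin were listed too. Of 24 measured, 1 rose, 0 fell and 6 had an unadjusted p under 0.05 in limma's fit (14.8% of all genes did), with a median log2 fold change of 0.07. This was Il24, an epithelial cytokine of the IL-20 family, which rose by 1.41 (SE 0.16, limma adjusted p = 0.0066). The lowest fold change was that of Il1f6, the gene of IL-36 alpha, at -0.23 (SE 0.16, limma adjusted p = 0.56). Of the 24, 5 lay in the lowest 33.3% of all genes by level (Il17a, Il19, Il20, Il22 and Ifng), where a change is hard to detect. In 3 of the 24 every K320E array lay above every control (5.5% of all genes): Il24, Tnfrsf1a (0.64, limma adjusted p = 0.075) and Osmr (0.37, limma adjusted p = 0.15).

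Of 25 transcription factors of keratinocyte differentiation and stress, 2 rose and 0 fell in limma's fit, 9 had an unadjusted p under 0.05 (14.8% of all genes did), and the median log2 fold change was 0.18. Nfe2l2, which encodes the antioxidant regulator NRF2, rose by 0.49 (SE 0.08, limma adjusted p = 0.031), and Fosb, a subunit of AP-1, rose by 0.46 (SE 0.08, limma adjusted p = 0.041). Limma called 1 of the 25 without K320E replicate 2 and 0 without any of the other 7 arrays, with 5 to 9 at an unadjusted p under 0.05. Pou3f1 had the lowest fold change, -0.15 (SE 0.09, limma adjusted p = 0.48).

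**Figure D4:**
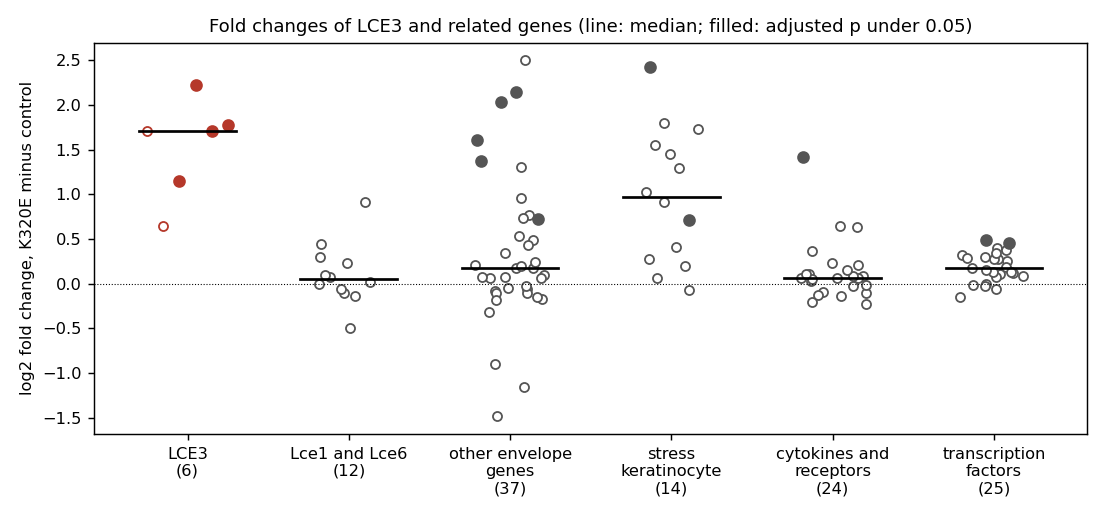
Log2 fold change (K320E minus control) of every measured gene in the LCE3 group and in the 5 related lists, with the number of genes in brackets; lines are medians and filled symbols had an adjusted p under 0.05. The LCE3 median is 1.71, against 0.05 for the Lce1 and Lce6 genes and 0.18 for the other envelope genes.

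The genes most like the LCE3 mean were named by a rule and are given as a description of 8 arrays that share the group difference. By Pearson's r over all 8 arrays these were Gsta4, a glutathione transferase (0.990), Mars1, the cytosolic methionyl-tRNA synthetase (0.989), Niban1 (0.988), Slc7a3, a cationic amino acid transporter (0.986), and Asns, asparagine synthetase (0.985). All 5 were themselves called higher in K320E by limma, with log2 fold changes from 0.46 to 1.90. On the deviations from the group means, which leave out the genotype difference, the highest r were those of Fgf11 (0.980), Slc25a33 (0.974), Tarbp2 (0.960), Fmn2 (0.957) and Tfdp1 (0.956), none of which passed limma's test between genotypes (adjusted p = 0.095 to 0.84).

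Mean levels of hair, sebocyte, Langerhans and dendritic cell, and neutrophil markers did not overlap between the genotypes. Those of macrophage, T cell, melanocyte, muscle and fibroblast markers overlapped. In bulk epidermis, fewer cells of a type and less RNA per cell cannot be told apart. The mean of 22 hair follicle genes ran from 6.77 to 7.17 on the K320E arrays, against 7.31 to 8.76 on the control arrays, with 0 of 22 fold changes positive and Krtap21-1 called lower. Of the 22, 14 had an unadjusted limma p under 0.05 (14.8% of all genes did). In 7 of the 22 every K320E array lay below every control, as in 832 of all 22180 genes. Control replicate 4 had a hair mean of 8.76 and an LCE3 mean of 6.98, and control replicate 1 had 8.04 and 7.49. Control replicate 2 had 7.31 and 7.53, and control replicate 3 had 7.45 and 7.16. Without control replicate 4 the log2 fold changes were 2.20 for Lce3d, 1.66 for Lce3e, 1.71 for Lce3f and 0.98 for Lce3c, and limma called all 4 (adjusted p = 0.0063 to 0.026). The hair means of the remaining control arrays still lay above every K320E array. With the hair mean as a covariate the fold changes were 2.18 for Lce3d, 1.58 for Lce3e, 1.54 for Lce3f and 0.85 for Lce3c. Lce3a was at 1.45 and Lce3b at 0.34. Of the 6 LCE3 genes 0 passed (limma adjusted p from 0.089), 5 having an unadjusted p under 0.05. In that fit Twnk was the only gene called of 22180. The hair means did not overlap between the genotypes, so that fit cannot tell hair content and genotype apart.

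The 9 sebocyte markers averaged 6.698 to 6.997 on the K320E arrays, against 7.09 to 8.06 on the control arrays. The 8.06 was that of control replicate 4, and the other controls lay at 7.09 to 7.13. Limma called 0 of the 9, and 4 had an unadjusted p under 0.05 (14.8% of all genes did). Plin2 had the 1 positive fold change of that list, 0.47. The 6 Langerhans and dendritic cell markers averaged 6.51 to 6.62 on the K320E arrays, against 6.90 to 7.03 on the control arrays. The MHC class II genes H2-Aa (-1.05) and H2-Ab1 (-0.98) were called lower and carried most of that difference. H2-Eb1 and Epcam had fold changes of -0.19 and -0.18, Cd207 -0.07 and Itgax -0.03, none of them called. Cd207 lay in the lowest 33.3% of all genes by level. The 12 neutrophil markers averaged 6.03 to 6.19 on the K320E arrays, against 5.39 to 5.92 on the control arrays. Limma called 0 of the 12, and 4 had an unadjusted p under 0.05 (14.8% of all genes did). Of the 12, 7 lay in the lowest 33.3% of all genes by level. The highest fold changes of that list were those of S100a8 (1.73), S100a9 (1.56) and Cxcr2 (1.32), and the first 2 also belong to the stress keratinocyte list. The granulocyte genes Ly6g, Mpo, Camp and Elane had fold changes from -0.02 to 0.01, and the list's median was 0.10. Ltf, Csf3r, Retnlg, Ngp and Mmp8 had fold changes from 0.07 to 0.37. Of these granulocyte genes only Elane and Mmp8 lay above the lowest 33.3% by level, so a change in the others is hard to detect.

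Of 5 T cell markers, Thy1, which other cells carry too, was called higher (0.69, SE 0.13, limma adjusted p = 0.0495), while the T cell receptor subunits Cd3d and Cd3g had fold changes of -0.75 and -1.19 that missed the threshold (limma adjusted p = 0.064 and 0.14), with no overlap between the genotypes. The means of the T cell list overlapped between the genotypes. All 8 skeletal muscle markers had positive fold changes (median 0.66) and 0 of 6 melanocyte markers did (median -0.34). Macrophage markers had 3 of 8 positive fold changes (median -0.11; Cd68 at 0.51 and Cd14 at 0.46 did not overlap) and fibroblast markers 5 of 6 (median 0.19). In these last 4 lists limma called 0 genes, and the list means of the genotypes overlapped. In that order 2 of 8, 3 of 6, 2 of 8 and 0 of 6 had an unadjusted p under 0.05. Over all genes 14.8% did. The parts of sebaceous, Langerhans, neutrophil, T cell, muscle, melanocyte, macrophage and fibroblast content in the LCE3 difference were not tested. That of hair content could not be told apart from genotype.

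**Figure D5:**
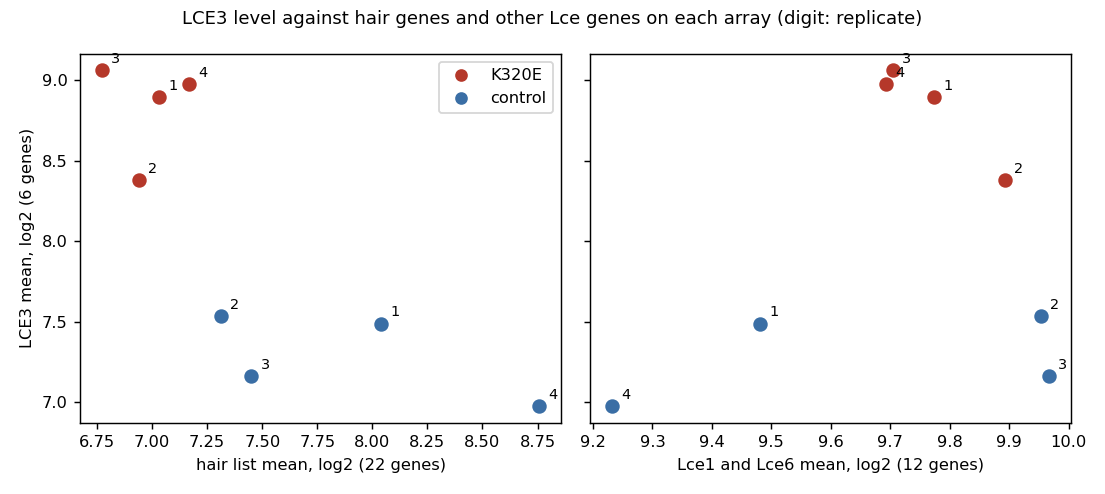
Mean log2 level of the 6 LCE3 genes (y axis) on each array against the mean of 22 hair follicle genes (left) and of the 12 Lce1 and Lce6 genes (right), with K320E arrays in red, control arrays in blue and replicate numbers as digits. The K320E arrays lie at or above 8.38 on the LCE3 axis and the controls at or below 7.53, while the Lce1 and Lce6 means of the genotypes overlap.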

How the data were processed

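The authors deposited 1 table of log2 intensities, with 33793 probe sets and 8 arrays (RNA amplified with NuGEN Applause WT-Amp Plus ST and biotin-labelled, per the labels). How they were background-corrected, summarised and normalised is not given in the sources used here. Array medians ran from 6.06 to 6.11, and no pair of arrays held identical values. GEO's platform annotation gave 23521 probe sets 1 gene symbol, 1814 several and 8458 none. The probe set with the highest mean represented each gene.

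K320E and control arrays were compared in limma 3.58.1 under R 4.3.3 (lmFit, eBayes, genotype as the only term, Benjamini-Hochberg over 22180 genes, threshold 0.05); the fit was tested on simulated data. Differences are K320E minus control. The number of arrays limits the precision.

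Members and lists were chosen with earlier results of these data known. Named genes were all members, Twnk, called genes of the related lists (up to 6), the highest and lowest of each, and the 5 most like the LCE3 mean by each measure. All 6 members lay above the lowest 33.3% of genes by mean level. Promoters were compared with Biopython 1.88.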

Additional observations from a re-analysis of the deposited data

How the results depend on the processing

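Counts of called Lce1 and Lce6 genes stayed at 0 and every LCE3 fold change stayed positive under all 18 alternatives tried. The Lce1 and Lce6 genes with an unadjusted limma p under 0.05 ran from 1 to 7 of 12, against 2 in the main fit. The 7 came without control replicates 2 and 3 together. Leaving out each array in turn gave 53 to 173 called genes instead of 195, 3 to 5 called LCE3 genes, log2 fold changes of 1.54 to 1.95 for Lce3a and 0.98 to 1.26 for Lce3c, and called counts of 1 to 6 envelope, 0 to 3 stress and 0 to 1 transcription factor genes; the causes were not tested. The count over all genes was 105 without K320E replicate 1, 53 without replicate 3 and 77 without replicate 4, and 87, 87 and 118 without control replicates 1, 2 and 4. With the hair mean as a covariate limma called 1 gene in all and 0 in the LCE3 group and each list. In that fit 5 LCE3, 5 Lce1 and Lce6, 13 envelope, 5 stress, 7 cytokine and 4 transcription factor genes had an unadjusted p under 0.05. Lce3a was at 1.45, Lce3b at 0.34, Lce3c at 0.85, Lce3d at 2.18, Lce3e at 1.58 and Lce3f at 1.54. With the lowest 33.3% of genes left out, fewer genes were tested and Lce3a passed (1.71, adjusted p = 0.020), as did 9 envelope, 7 stress and 2 cytokine genes. Lce3a also passed with array quality weights (1.75, adjusted p = 0.049). With every probe set tested 3 envelope genes and 1 transcription factor passed. Without control replicates 2 and 3 together Lce3c was at 1.24 (adjusted p = 0.072), and 4 stress genes and 1 transcription factor passed; the cause was not tested.

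Same-numbered arrays did not deviate together (correlations 0.07, -0.06, 0.09 and 0.16 over 14786 genes), so the numbers were not taken as pairs. With the replicate block 114 genes, 4 LCE3 genes, 3 envelope genes and 0 transcription factors passed in limma's fit (9 transcription factors with an unadjusted p under 0.05).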

Other observations

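Lce1c and Lce1d were read only by probe sets that also name Lce1k and were left out of the gene counts. Fitted with all 33793 probe sets in limma, the probe set shared by Lce1c and Lce1k stood at 11.66 ± 0.08 (SD, n = 4) in K320E and 11.66 ± 0.30 (SD, n = 4) in controls, with an adjusted p of 0.998. The one shared by Lce1d and Lce1k stood at 11.90 ± 0.25 (SD, n = 4) in K320E and 11.53 ± 0.29 (SD, n = 4) in controls, a difference of 0.37 log2 units (SE 0.16, limma adjusted p = 0.38).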
